A study of Homo sapiens with 4 samples.

Results

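The genes described here are the coding genes of the HOXA, HOXC and HOXD clusters and the long noncoding RNA HOTTIP, chosen by gene symbol from a list and followed through every library of a HOXB9 knockdown study. The list holds 29 symbols and all of them had a row among the 57815 rows of the deposited expression table. HOXC4 had 2 rows, here called row 1 and row 2 in the order of the table, which gave 30 rows. The study sequenced polyadenylated RNA of AGS and MKN1, cell lines derived from human gastric carcinomas. Each line was transfected with a Lipofectamine reagent and either a scrambled control siRNA (siScramble, genotype given as WT) or an siRNA against HOXB9 (siHOXB9, genotype given as HOXB9 knockdown), so all 4 libraries come from transfected cells. There was 1 library per line and siRNA, and no untransfected library was analysed here. The sources used here do not give the siRNA sequences, the time after transfection or the number of cultures. The stated aim was to identify genes targeted by HOXB9.

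HOX genes encode homeodomain transcription factors that give cells their position along the body axis. In mammals they lie in 4 clusters, A to D, and genes with the same number in different clusters are paralogs that descend from 1 ancestral gene. Within a cluster the genes follow each other in the order of their numbers: low numbers act in anterior parts of the embryo, and the posterior genes, with numbers from 9 to 13, act in the hindmost trunk, the limbs and the urogenital tract. Many HOX proteins bind DNA together with PBX and MEIS cofactors, and their genes are kept silent by Polycomb complexes and active by Trithorax complexes. HOXB9, the targeted gene, is a posterior gene of the HOXB cluster and has the paralogs HOXA9, HOXC9 and HOXD9.

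HOXA genes lie on the reverse strand of chromosome 7, HOXC genes on the forward strand of chromosome 12 and HOXD genes on the forward strand of chromosome 2 (GRCh38, GENCODE release 29). HOXA2 starts the listed HOXA genes at chr7:27100354-27102811 and HOXA13 closes them at chr7:27193503-27200106. HOTTIP, transcribed from the far end of the cluster in the opposite direction, spans chr7:27198575-27207259. In the HOXC cluster HOXC13 lies at chr12:53938765-53946544 and HOXC4, at the other end, at chr12:54016931-54056030. In the HOXD cluster HOXD13 lies at chr2:176092891-176095938 and HOXD1 at chr2:176188579-176190907. Several of these genes share exon sequence with a neighbour. HOXC4 and HOXC6 share 484 exon bases on the same strand, HOXD10 and HOXD11 share 452, and 1507 exon bases of HOXA7, 62.5% of its total, overlap the antisense RNA HOXA-AS3. No strand-keeping step is described in the protocol, so reads of such pairs may not have been separable.

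The members most like the target are shown first, because an siRNA or a short read can act on or come from any transcript with the same letters. The longest run that the coding transcript of HOXB9 (2581 bases, coding part from base 88 to 837) shares letter for letter with a transcript of each member was 11 to 40 bases long, with a median of 15 over the 29 members. It reached 20 bases in 8 members, all with numbers from 9 to 11, and these runs lie between bases 640 and 792 of HOXB9, in the second of its 2 exons and in its coding part. Below, the shared run stands in capitals with up to 10 bases of the member on either side. HOXD10 and HOXD11 carry the same run, so 1 of them is shown.
HOXD9: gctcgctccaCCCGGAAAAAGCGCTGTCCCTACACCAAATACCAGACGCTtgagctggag
HOXA10: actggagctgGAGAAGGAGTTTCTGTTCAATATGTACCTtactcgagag
HOXA11: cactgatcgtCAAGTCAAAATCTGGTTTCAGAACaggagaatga
HOXC10: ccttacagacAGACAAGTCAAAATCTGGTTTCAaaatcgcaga
HOXD10: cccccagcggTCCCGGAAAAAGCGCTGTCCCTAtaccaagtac
HOXA9: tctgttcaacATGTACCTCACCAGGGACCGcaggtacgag
HOXC9: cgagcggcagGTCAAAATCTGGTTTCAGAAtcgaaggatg

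HOXD9 shared the longest run, 40 bases, followed by HOXA10 with 29 and HOXA11 with 24. HOXC10, HOXD10 and HOXD11 shared 23 bases each, and HOXA9 and HOXC9 shared 20. The runs of HOXA11, HOXC9 and HOXC10 overlap each other in HOXB9, and that of HOXD9 lies upstream of them.

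HOXB9 itself checks the labels. Its level was 16.4 FPKM (fragments per kilobase of transcript, scaled to library size) with siScramble and 4.44 FPKM with siHOXB9 in AGS, and 1.14 FPKM with siScramble and 0.218 FPKM with siHOXB9 in MKN1. In each line the siHOXB9 library held less of it. Depth, estimated from low values, was about 10630000 to 12990000 fragments per library, where 1 fragment in a transcript of 2 kb is worth 0.0442 to 0.0541 FPKM. Of all rows, 480 combined a 0 in some library with at least 5 FPKM elsewhere, and 28 did so within a line, so a 0 can be a failed estimate. No member was at 0 in one library of a line and at 1 FPKM or more in the other. KRT8 and KRT18, keratins of simple epithelia, were between 654 and 1880 FPKM in all libraries. EPCAM, an epithelial adhesion molecule, was at 328 and 359 FPKM in AGS and 2.14 and 2.70 FPKM in MKN1. CDH1 (E-cadherin) was at 1.63 and 3.28 FPKM in AGS and under 0.3 FPKM in both MKN1 libraries. KRT19, CLDN4 and ELF3 were also higher in AGS. KRT7, another keratin, went the other way, at 3.73 and 4.98 FPKM in AGS and 1710 and 1629 FPKM in MKN1. The 7 fibroblast markers summed to 28.4 and 43.5 FPKM in AGS and 59.1 and 72.6 FPKM in MKN1, with COL1A2 at 0 throughout. Among them COL3A1 was at 0.0874 and 0.0605 FPKM in AGS and 17.4 and 20.2 FPKM in MKN1. PDGFRA was at 12.2 and 12.7 FPKM in AGS and at 0 in MKN1. The 4 endothelial markers with a row summed to 0.00961 to 2.10 FPKM with KDR at 0, and the 7 immune markers to 2.89 to 13.5 FPKM, mostly from CD68, with CD3E and MS4A1 at 0. Several markers thus differed between the lines, in both directions, and their part in the HOX differences between the lines was not tested.

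The lines held different HOX genes. AGS, in both libraries, listed the HOXA and HOXD genes at or near 0 and expressed a small part of the HOXC cluster. MKN1 expressed posterior HOXA genes, posterior HOXC genes other than HOXC12, and HOXD9, and also HOXA7 and HOXC6 from the middle of their clusters. Among 30 rows, 5 reached 1 FPKM in the AGS control library and 4 after knockdown, all of them HOXC genes. In MKN1 12 rows reached 1 FPKM with siScramble and 11 with siHOXB9. Those with siScramble were 6 HOXA genes, 5 HOXC genes and 1 HOXD gene. In total 15 rows, of 14 genes, reached 1 FPKM in any library, and the other 15 rows did not. HOXA2, HOXD1, HOXD4 and HOXD13 were listed at 0 in all 4 libraries.

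**Figure D1:**
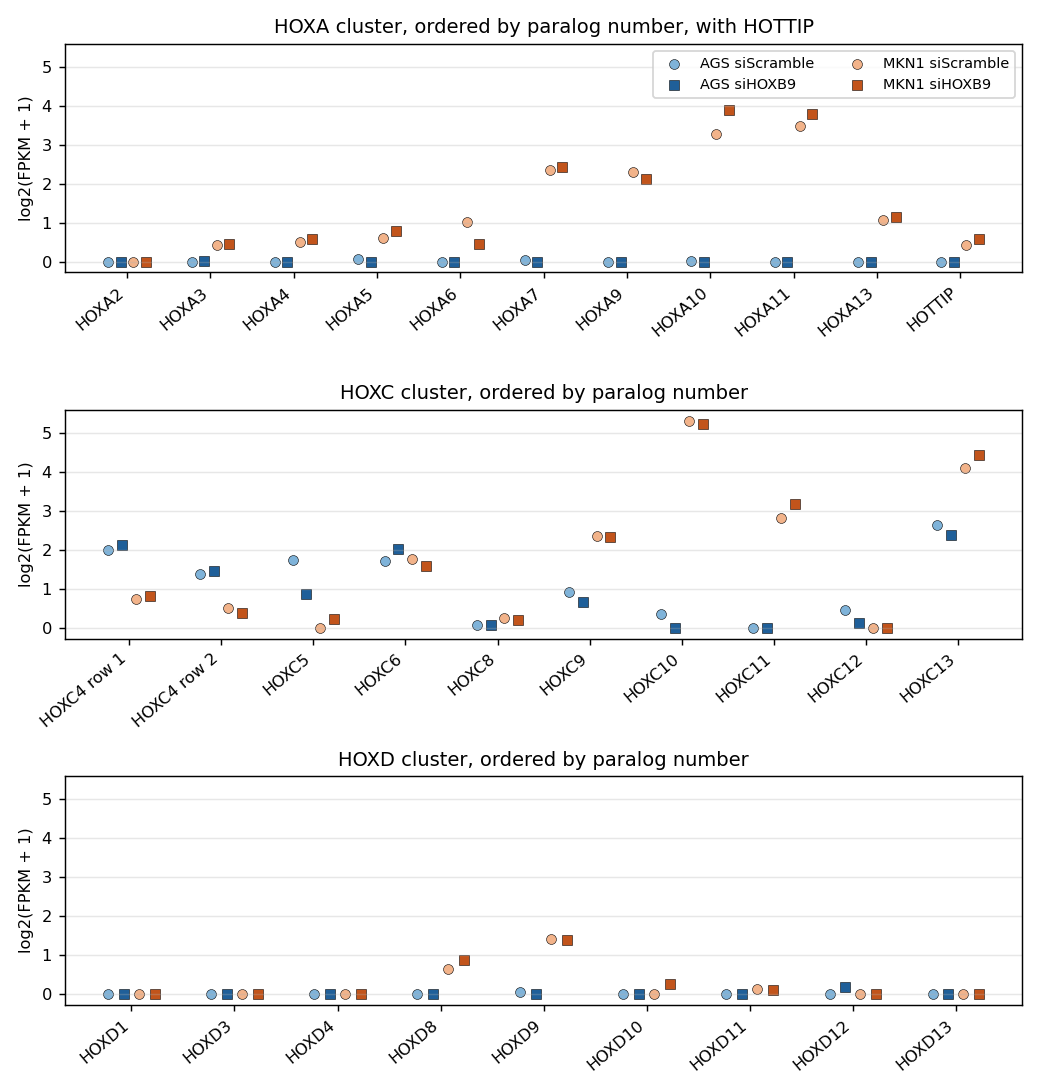
Level of each member, as log2(FPKM + 1), in the AGS libraries (blue) and the MKN1 libraries (orange), with siScramble as circles and siHOXB9 as squares; genes are ordered by paralog number within each cluster. HOXA and HOXD genes lie at the floor in AGS, and in MKN1 the highest points are HOXC10, HOXC13, HOXA11 and HOXA10.

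The posterior HOXA genes were the largest HOXA signal in MKN1. HOXA11, a regulator of the forelimb zeugopod and the uterus, was at 10.2 FPKM with siScramble and 12.9 FPKM with siHOXB9 in MKN1, and at 0 in both AGS libraries. HOXA10, which patterns the uterus and the lumbar axis, was at 8.70 FPKM with siScramble and 14.02 FPKM with siHOXB9 in MKN1, and at 0.00818 and 0 FPKM in AGS. For this gene a single fragment was worth about 0.0381 FPKM in the MKN1 siScramble library, more than the 0.00818 FPKM listed in AGS. HOXA10 and HOXA11 overlapped in level in MKN1. Both share exon bases with antisense RNAs, HOXA10 608 bases with HOXA10-AS and HOXA11 717 bases with HOXA11-AS.

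HOXA9, a leukaemia-linked paralog of HOXB9, was at 3.96 FPKM with siScramble and 3.34 FPKM with siHOXB9 in MKN1, and at 0 in both AGS libraries. HOXA7, a gene from the middle of the cluster, was at 4.15 and 4.37 FPKM in MKN1 (siScramble, then siHOXB9), and at 0.0437 and 0 FPKM in AGS. HOXA13, which patterns the distal limb and hindgut, was at 1.10 and 1.21 FPKM in MKN1 and at 0 in AGS. The MKN1 levels of these 3 genes did not overlap with each other, and none of their AGS values reached 0.05 FPKM. HOXA6 was at 1.02 FPKM in MKN1 siScramble, 0.376 FPKM in MKN1 siHOXB9 and 0 in AGS, and 39.3% of its exon bases overlap HOXA-AS3. HOXA3, HOXA4 and HOXA5 were between 0.359 and 0.727 FPKM in the MKN1 libraries and at 0.0532 FPKM or below in AGS. Moving along the cluster in MKN1, the level was thus under 1 FPKM up to HOXA5, rose to a peak at HOXA10 and HOXA11 and was lower again at HOXA13. HOTTIP, which in other cells is known to keep the neighbouring HOXA genes active, was at 0.342 and 0.491 FPKM in MKN1 and at 0 in AGS.

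The HOXC cluster was the source of nearly all member transcript in AGS. HOXC13, a regulator of hair and nail keratins, was the highest member in that line, with 5.26 FPKM with siScramble and 4.26 FPKM with siHOXB9. In MKN1 it was at 16.2 FPKM with siScramble and 20.6 FPKM with siHOXB9, above both AGS values. HOXC13 has 1 annotated transcript, and these values correspond to about 148 and 115 fragments in AGS and 404 and 473 fragments in MKN1.

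HOXC10, which acts in hindlimb and lumbar motor neuron patterning, was the highest member in MKN1, with 39.1 FPKM with siScramble and 37.0 FPKM with siHOXB9. In AGS it was at 0.279 and 0 FPKM. HOXC11, its neighbour, was at 6.13 and 8.15 FPKM in MKN1 and at 0 in both AGS libraries. HOXC9, a paralog of HOXB9, was at 4.16 and 4.05 FPKM in MKN1 and at 0.916 and 0.590 FPKM in AGS. All 3 genes were higher in both MKN1 libraries than in either AGS library. HOXC12, which lies between HOXC11 and HOXC13, had the opposite pattern at a low level, with 0.375 and 0.0883 FPKM in AGS, about 15.0 and 3.39 fragments, and 0 in MKN1. HOXC8 was between 0.0513 and 0.190 FPKM in all 4 libraries, at most about 3.55 fragments.

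The low-numbered end of the HOXC cluster was the stronger one in AGS. HOXC4 row 1 was at 2.99 FPKM with siScramble and 3.38 FPKM with siHOXB9 in AGS, and at 0.688 and 0.782 FPKM in MKN1. HOXC4 row 2 was at 1.62 and 1.75 FPKM in AGS, and at 0.427 and 0.299 FPKM in MKN1. Both rows were higher in AGS, without overlap. HOXC5 was at 2.38 FPKM with siScramble and 0.842 FPKM with siHOXB9 in AGS, and at 0 and 0.177 FPKM in MKN1. HOXC6, linked to several carcinomas, was the only member above 1 FPKM in all 4 libraries besides HOXC13, with 2.28 and 3.06 FPKM in AGS and 2.39 and 2.04 FPKM in MKN1, and its 4 values overlapped. HOXC4, HOXC5 and HOXC6 are known to be made in part from a common primary transcript with a shared first exon. GENCODE has 2 gene models named HOXC5. The model listed as a processed transcript shares 305 exon bases with HOXC4 and 305 with HOXC6, while the coding model shares none with either. Which model the HOXC5 row stands for is not given. The 4 rows summed to 9.27 and 9.03 FPKM in AGS and 3.51 and 3.30 FPKM in MKN1.

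HOXD genes were low in both lines, with HOXD9 the only one to reach 1 FPKM. HOXD9, the member with the longest run shared with HOXB9, was at 1.69 and 1.61 FPKM in MKN1, about 31.3 and 27.6 fragments, and at 0.0356 and 0 FPKM in AGS. HOXD8 was at 0.561 and 0.848 FPKM in MKN1 and at 0 in AGS. HOXD3, HOXD10, HOXD11 and HOXD12 were at 0.207 FPKM or below in every library. In MKN1, then, HOXD transcript was limited to HOXD8 and HOXD9 apart from values of at most 0.207 FPKM.

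By level, the MKN1 order was HOXC10, HOXC13, HOXA11 and HOXA10 together, HOXC11, HOXA7 and HOXC9 together, HOXA9, HOXC6, HOXD9 and HOXA13, where genes named together overlapped in their 2 libraries and neighbours otherwise did not. HOXA6 followed these. In AGS the order was HOXC13, HOXC4 row 1 and HOXC6, which overlapped, HOXC4 row 2 and HOXC9, and HOXC5 overlapped with HOXC6, HOXC4 row 2 and HOXC9.

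Summed over a cluster, the HOX transcripts of the lines came from different clusters. The listed HOXA genes summed to 0.107 and 0.00970 FPKM in AGS, and to 30.5 and 37.8 FPKM in MKN1 (siScramble, then siHOXB9). HOXC rows summed to 16.2 and 14.02 FPKM in AGS and 69.3 and 73.2 FPKM in MKN1. HOXD rows summed to 0.0356 and 0.138 FPKM in AGS and 2.35 and 2.76 FPKM in MKN1. The HOXB genes had the opposite order, with 49.6 and 43.0 FPKM in AGS and 10.9 and 10.5 FPKM in MKN1. HOXB genes thus made up 75.3% and 75.2% of the summed HOX level in AGS, and 9.62% and 8.45% in MKN1. In these bulk libraries, fewer cells that express a gene and less RNA per cell cannot be told apart.

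**Figure D2:**
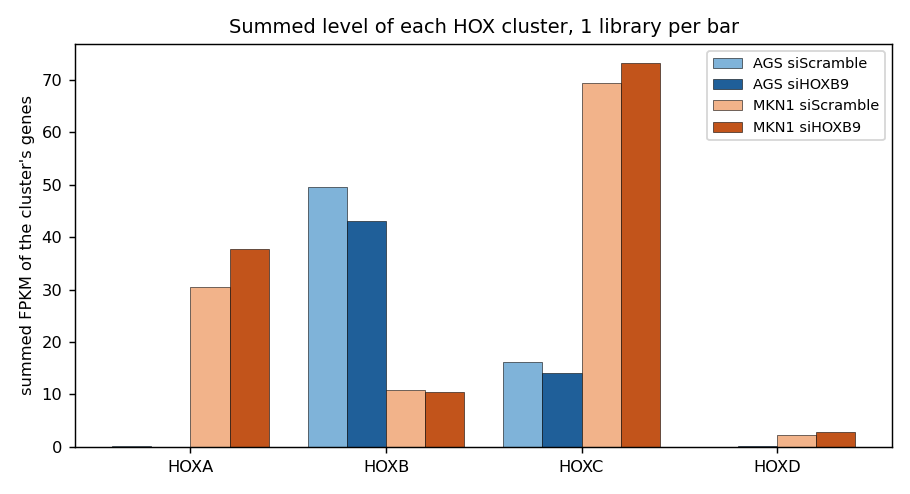
Summed FPKM of the genes of each HOX cluster, with 1 bar per library. HOXB is the highest cluster in the AGS libraries, at 49.6 and 43.0 FPKM, and HOXC in the MKN1 libraries, at 69.3 and 73.2 FPKM.

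Within the members, posterior genes (numbers 9 to 13) gave 42.2% and 35.8% of the summed level in AGS and 89.5% and 90.6% in MKN1. The central genes (numbers 4 to 8) gave 57.8% and 64.1% in AGS and 10.2% and 9.03% in MKN1. HOXC10 alone gave 38.3% and 32.5% of the members' sum in MKN1. Adding the HOXB genes and grouping all 4 clusters by paralog number, group 10 stood at 0.287 and 0 FPKM in AGS and 47.8 and 51.2 FPKM in MKN1, and group 11 at 0 in AGS and 16.4 and 21.2 FPKM in MKN1. Group 6 had the reverse order, with 21.1 and 23.1 FPKM in AGS, mostly from HOXB6, and 4.47 and 3.06 FPKM in MKN1. Group 9, which holds the siRNA target, was at 17.4 FPKM in AGS siScramble and 5.04 FPKM in AGS siHOXB9, a drop made almost wholly by HOXB9, and at 10.96 and 9.21 FPKM in MKN1, where HOXA9, HOXC9 and HOXD9 made up most of it.

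**Figure D3:**
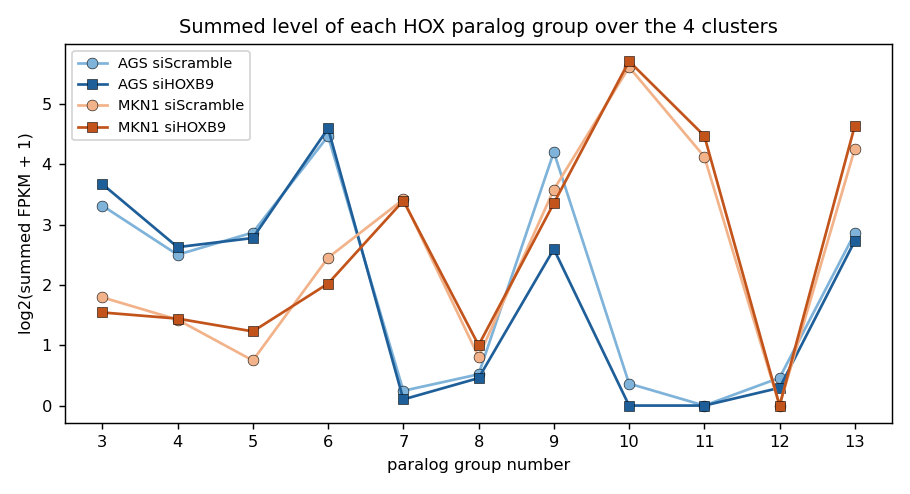
Summed level of each paralog group over the HOXA, HOXB, HOXC and HOXD genes described, as log2(summed FPKM + 1), by library. The AGS libraries are the higher ones in groups 3 to 6 and 12, and the MKN1 libraries in groups 7, 8, 10, 11 and 13. Groups 8 and 12 are low in all libraries, at most about 1.00 FPKM. Group 9 drops from 17.4 to 5.04 FPKM with siHOXB9 in AGS.

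The difference between the lines was tested with limma on log2(FPKM + 1) in a model of line plus siRNA, over the 13758 rows that reached 1 FPKM in 2 or more libraries. This fit has 1 residual degree of freedom, and the 2 libraries of a line differ in siRNA and are its only repeat. A row was called at an adjusted p under 0.05 with a difference of at least 1 on the log2 scale. Over all rows tested, 16.2% were called higher in MKN1 and 20.9% lower in MKN1. Of the 30 member rows 13 entered the fit. Of these, 9 were under 1 FPKM in both AGS libraries and passed the filter only through MKN1, so they had to differ and their number is no support for a difference. They were HOXA7, HOXA9, HOXA10, HOXA11, HOXA13, HOXC9, HOXC10, HOXC11 and HOXD9, all called higher in MKN1. HOXC10 had the largest estimate among the members, with a difference of 5.11 (SE 0.216, higher in both MKN1 libraries), and ranked 125 of 13758 rows by signed difference. HOXA11 followed at 3.64 (SE 0.221) and HOXA10 at 3.59 (SE 0.245).

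HOXC4 rows 1 and 2 were under 1 FPKM in both MKN1 libraries and passed the filter only through AGS, so the same limit holds for them. Row 1 had a difference of -1.27 (SE 0.212) and was called lower in MKN1, and row 2 had a difference of -0.98 (SE 0.212), just under the size asked for. The remaining 2 rows, HOXC6 and HOXC13, reached 1 FPKM in all 4 libraries. HOXC13 was higher in MKN1 by 1.75 (SE 0.228, limma adjusted p 0.000551, higher in both MKN1 libraries). HOXC6 did not pass, with a difference of -0.18 (SE 0.230, limma adjusted p 0.520). Without a filter on low values 8 member rows were called and HOXC4, HOXC9 and HOXC13 were not among them.

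**Figure D4:**
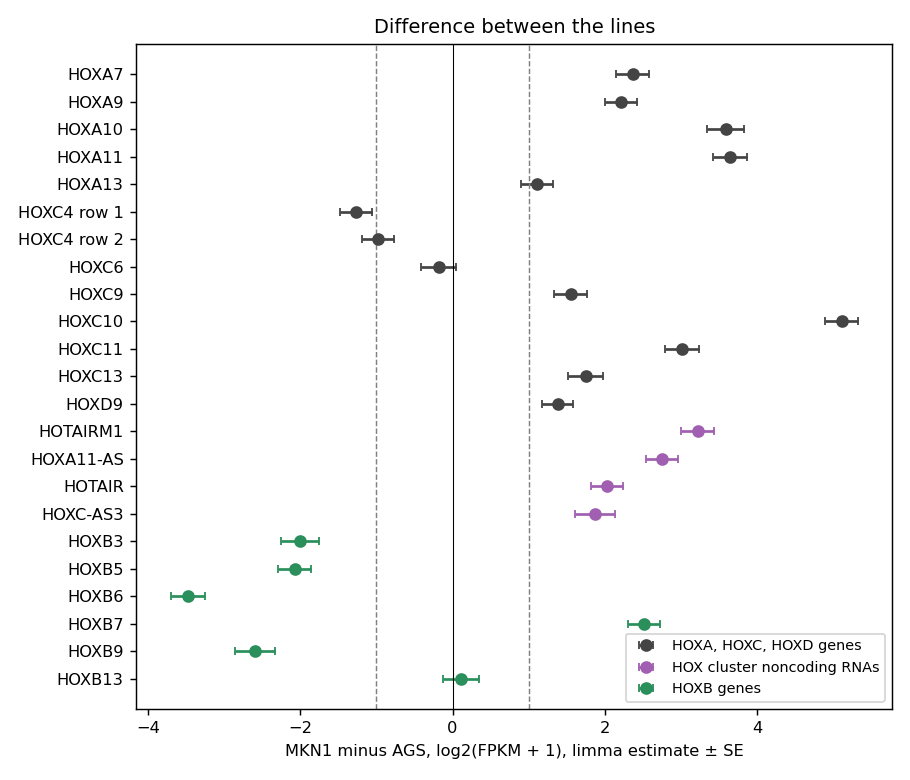
Difference between MKN1 and AGS on the log2(FPKM + 1) scale, with the standard error of the limma fit, for the 13 member rows tested, 4 noncoding RNAs of the clusters and 6 HOXB genes; dashed lines mark a difference of 1. HOXC10 is farthest to the right at 5.11, and HOXC4 rows 1 and 2 lie to the left of 0.

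Noncoding RNAs inside the clusters followed the line as well. Of 13 that were listed, 9 had a row, and 7 reached 1 FPKM in a library, all of them in MKN1 only. HOTAIRM1, from the low-numbered end of the HOXA cluster, was at 7.66 and 9.03 FPKM in MKN1 and HOXA11-AS at 6.05 and 5.39 FPKM, and both were at 0 in AGS. HOTAIR, transcribed from the HOXC cluster between HOXC11 and HOXC12, was at 3.88 and 2.77 FPKM in MKN1 and at 0.107 and 0 FPKM in AGS. HOXC-AS3, which overlaps HOXC10, was at 2.53 and 4.05 FPKM in MKN1 and at 0.279 and 0.0426 FPKM in AGS. These 4 entered the limma fit and were called higher in MKN1, and like the HOXA genes they passed the filter only through MKN1. HOXA-AS2, by contrast, was under 0.11 FPKM in all libraries. As no strand-keeping step is described, reads of HOXA11-AS and HOXA11 may not have been separable where they overlap.

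Most genes that flank the clusters were measured in both lines. Of 18 with a row, 16 reached 1 FPKM in AGS, and EVX1 and EVX2, homeobox genes next to HOXA13 and HOXD13, were at 0 in all libraries. SKAP2, an adaptor protein gene beside the low-numbered end of the HOXA cluster, was at 13.3 and 7.18 FPKM in AGS and 2.87 and 4.93 FPKM in MKN1. MTX2, a mitochondrial import gene beside the HOXD cluster, was named for its position after its values were seen and was at 37.1 and 34.1 FPKM in AGS and 32.2 and 30.1 FPKM in MKN1. Of 16 flanking genes tested by limma, 1 was called higher and 4 were called lower in MKN1, beside 16.2% and 20.9% of all rows. Among these 5, NFE2 passed the filter only through AGS.

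Among regulators of HOX genes, CDX2 and CRABP2 were far higher in AGS. Of 8 genes of the retinoic acid pathway and the CDX family tested by limma, 3 were called higher and 3 lower in MKN1, beside the 16.2% and 20.9% of all rows. Of these 6 calls, 3 were of genes that passed the filter through 1 line only (CYP26B1, ALDH1A3 and ALDH1A1) and so had to differ. CDX2, an intestinal homeobox factor that acts upstream of central HOX genes, was at 74.8 and 107 FPKM in AGS and 0.516 and 1.76 FPKM in MKN1 (difference -5.47, SE 0.206, limma adjusted p 1.89e-06). CRABP2, which carries retinoic acid to its receptors, was at 420 and 260 FPKM in AGS and 13.7 and 9.79 FPKM in MKN1. ALDH1A1, a retinoic acid synthesis enzyme, was at 5.38 and 16.3 FPKM in AGS and 0.0470 and 0.180 FPKM in MKN1. Of 25 Polycomb genes tested, 2 were called higher and 3 lower in MKN1, 1 of them (PHF19) through MKN1 only, with RNF2, a ubiquitin ligase of the complex, at 14.3 and 13.8 FPKM in AGS and 8.52 and 4.47 FPKM in MKN1. Of 16 Trithorax and MLL genes tested, 0 were called higher and 1 lower. Of 8 cofactor genes tested, 1 was called higher (MEIS1, which passed the filter only through MKN1) and 1 lower, the latter MEIS3, at 39.6 and 63.3 FPKM in AGS and 7.33 and 11.6 FPKM in MKN1.

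The knockdown was compared within each line as the log2 ratio of siHOXB9 to siScramble with 1 FPKM added to both, where a change of at least 1 in size, 2-fold, counted as a difference. No test is possible with 1 library per group. In AGS 0 of 5 member rows with at least 1 FPKM in either library passed this rule, beside 3.89% of all 13252 such rows. The 5 changes ran from -0.88 to 0.31 with a median of 0.07, and the median of all rows was -0.06. HOXC5 had the largest change, -0.88, from 2.38 to 0.842 FPKM, while HOXC6 (0.31) and HOXC4 rows 1 (0.13) and 2 (0.07) had positive values. Summing the 4 rows of HOXC4, HOXC5 and HOXC6, for which some gene models share exon sequence, gave a change of -0.03, an alternative chosen after seeing the data. HOXC13 was at -0.25.

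In MKN1 0 of 12 member rows passed the rule, beside 4.05% of all 13122 rows. HOXB9 itself, at 19.1% of its control in MKN1, had a change of -0.81 there and did not pass, while its change in AGS was -1.68. With 1 FPKM added, a fall of a gene near 1 FPKM can thus miss the rule. The changes of the 12 member rows ran from -0.56 to 0.63 with a median of 0.01, and the median of all rows was 0.10. HOXA10 had the largest positive value, 0.63, and HOXC11 (0.36), HOXC13 (0.32) and HOXA11 (0.31) were next. HOXA6 had the largest negative value, -0.56, with siHOXB9 at 36.7% of its control. HOXA9 (-0.19), HOXC6 (-0.16), HOXC10 (-0.08), HOXD9 (-0.04) and HOXC9 (-0.03) were negative by less than 0.2. HOXA7 (0.06) and HOXA13 (0.08) were positive as deposited, and after centring on the median gene they turned to -0.03 and -0.02. At least 0.5 in size were 1 of 5 rows in AGS and 2 of 12 in MKN1, where 18.8% and 17.9% of all rows reached that size.

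**Figure D5:**
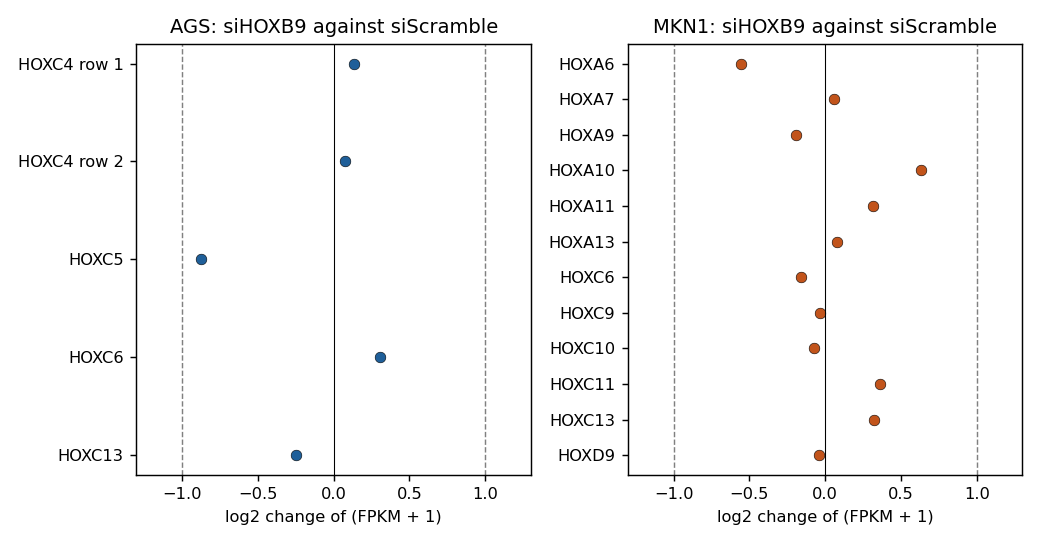
Change of each member row with at least 1 FPKM in the line, as the log2 ratio of siHOXB9 to siScramble with 1 FPKM added, in AGS (left, 5 rows) and MKN1 (right, 12 rows); dashed lines mark a 2-fold change and each point rests on 1 library per group. All points lie within the dashed lines, from -0.88 for HOXC5 in AGS to 0.63 for HOXA10 in MKN1.

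The other genes of the HOX pathway were read by the same 2-fold rule, which 3.89% of all rows passed in AGS and 4.05% in MKN1. In lists this short, counts of 0 or 1 are not read as a result about the list. In AGS 0 of 7 cofactor genes, 0 of 24 Polycomb genes, 0 of 16 Trithorax and MLL genes and 0 of 16 flanking genes passed the rule, and 1 of 6 retinoic acid and CDX genes did. That gene was ALDH1A1, from 5.38 to 16.3 FPKM, a change of 1.44. In MKN1 0 of 25 Polycomb genes, 0 of 15 flanking genes and 0 of 7 cluster noncoding RNAs passed. Among the last, HOXC-AS2 went from 1.65 to 0.461 FPKM, 28.0% of its control, a change of -0.86. HOXD-AS2 went from 1.13 to 0.253 FPKM, 22.4% of its control, a change of -0.77. Both were named after their values were seen and missed the rule with 1 FPKM added, while HOTAIRM1 and HOXC-AS3 were higher with siHOXB9. PBX2, a HOX cofactor and 1 of 8 measured, went from 0.530 to 2.30 FPKM (1.11). KMT2C, a histone methyltransferase of the MLL family and 1 of 16 measured, went from 1.67 to 5.46 FPKM (1.28). ALDH1A3, a retinoic acid synthesis enzyme and 1 of 7 measured, went from 1.28 to 4.03 FPKM (1.14). PBX2 and KMT2C were at 0.10 and 0.03 in AGS.

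The members with long runs in common with HOXB9 can be read beside the knockdown in MKN1, where most were measured. With siHOXB9 the level was 95.3% of the control for HOXD9 (40 shared bases), 161% for HOXA10 (29 bases), 127% for HOXA11 (24 bases), 94.6% for HOXC10 (23 bases), 84.2% for HOXA9 and 97.3% for HOXC9 (20 bases each). HOXB9 was at 19.1% of its control in the same library. In MKN1 none of these members had a level near that of HOXB9 relative to control. In AGS all of them were under 1 FPKM. There HOXC9 was at 64.5% of its control, and HOXB9 at 27.0%. HOXC10, HOXD9 and HOXA10 went from 0.279, 0.0356 and 0.00818 FPKM to 0 in AGS, and HOXA9 and HOXA11 were at 0 in both AGS libraries. Action of the siRNA on these members was not tested.

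Over both lines, limma called 0 of the 13 member rows for siHOXB9 against siScramble at an adjusted p under 0.05, beside 0.00727% of all rows, which is 1 row. At an unadjusted p under 0.05 it had 0 member rows and 980 of all 13758. The smallest unadjusted p was that of HOXA10, 0.246 (estimate 0.31, SE 0.245, adjusted p 0.869 by limma), which was higher with siHOXB9 in MKN1 and near 0 in AGS. Standard errors of the members were 0.206 to 0.245, and HOXB9 itself, lower in both lines with an estimate of -1.25 (SE 0.268), had a limma adjusted p of 0.355, so a change of that size in a member would not have been called either.

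Promoter windows of RefSeq (GRCh38.p14, 250 bases before to 50 after a start) were found for 20 of the 29 members, as 26 distinct windows. They held a median of 23.5 CpG dinucleotides, from 0 to 44, beside a median of 14 over 35116 windows of all genes, and their median GC content was 59.0% beside 58.7%. Members listed at 0 in both AGS libraries had from 4 CpG (HOXD4), 11 (HOXA2) and 13 (HOXA11) to 44 (HOXA13). The window of HOXA13 (chr7:27200042-27200341, reverse strand) overlaps the window of HOTTIP by 171 bases, so the pair starts head to head. The window shared by HOXC4 and HOXC5 (chr12:54016638-54016937, forward strand), which RefSeq gives as a start of both, held 15 CpG. Both are shown with CpG in capitals, the first for a gene that reached 1 FPKM only in MKN1 and the second for genes at a higher level in AGS.
HOXA13: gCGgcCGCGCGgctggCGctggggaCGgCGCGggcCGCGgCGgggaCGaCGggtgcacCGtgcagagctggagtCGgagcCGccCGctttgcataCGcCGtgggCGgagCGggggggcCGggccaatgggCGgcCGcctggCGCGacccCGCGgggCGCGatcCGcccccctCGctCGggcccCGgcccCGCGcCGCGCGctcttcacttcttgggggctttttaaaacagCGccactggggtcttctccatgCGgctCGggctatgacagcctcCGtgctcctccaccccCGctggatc
HOXC4 and HOXC5: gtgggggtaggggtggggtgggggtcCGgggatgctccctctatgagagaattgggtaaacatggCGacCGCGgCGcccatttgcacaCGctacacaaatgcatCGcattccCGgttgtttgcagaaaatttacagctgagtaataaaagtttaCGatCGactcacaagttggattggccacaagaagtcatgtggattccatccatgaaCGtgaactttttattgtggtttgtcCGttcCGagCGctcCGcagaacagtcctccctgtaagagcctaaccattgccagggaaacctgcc

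Letters known from sites of posterior HOX proteins with PBX were searched on both strands. TGATTTAT was in 0 of 26 windows and in 0.846% of all windows, and TGATTTAC in 1 of 26 and in 0.626% of all windows. CCATAAA, a CDX2 motif, was in 1 of 26 (HOXD8) and 2.54% of all windows. TATAAA, the core of the TATA box, was in 5 of 26 (19.2%) and 11.5% of all windows. Matches to TATAAA lay at positions -29 and -27 in HOXD13, -29 in HOXA3, -150 in HOXA9, and -222 and -150 in separate windows of HOXA10. These motifs were not required to be apart from each other. The only TGATTTAC lies at position -102 from the start of HOXA9 (chr7:27165488-27165787, reverse strand), which is shown with that motif and its TATAAA, at position -150, in capitals.
HOXA9: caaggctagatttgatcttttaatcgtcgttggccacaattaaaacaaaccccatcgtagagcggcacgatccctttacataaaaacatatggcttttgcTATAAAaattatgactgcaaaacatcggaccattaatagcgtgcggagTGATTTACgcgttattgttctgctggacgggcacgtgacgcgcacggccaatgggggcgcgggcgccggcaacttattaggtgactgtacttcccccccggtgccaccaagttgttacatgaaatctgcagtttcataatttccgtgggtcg

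A match of letters is not a bound site, and the study measured no binding.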

How the data were processed

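The deposited table holds FPKM values computed by the authors, 1 column per library and 1 row per gene symbol or repeated symbol; genome builds GRCh38 and hg38 are named in the submitters' processing notes. The aligner was not given in the sources used here, nor was the counting tool, and no counts were analysed. Columns were matched to samples by title; 1 title spells the line MNK1, and that sample was taken as MKN1 from its source name and cell line label. Depth was estimated from genes with 1 transcript and low FPKM as the fragment number that put most values within 0.05 of whole fragments, with lengths shortened by 260 bases; 54.8% to 56.4% were whole, so fragment numbers are approximate. Changes are on the log2(FPKM + 1) scale, which understates those of low genes. limma 3.58.1 (R 4.3.3) was fitted with an intensity trend over all rows that reached 1 FPKM in 2 or more libraries, two-sided, with Benjamini-Hochberg adjustment, and was tested on simulated data. P-values measure only the disagreement between these libraries. Member rows at 1 FPKM or more in any library were named with all values; of other lists, the HOXB9 gene and up to 4 genes with at least 5 FPKM and the largest change, plus genes of counts up to 5 and markers of the cell types, chosen after their values were seen. Members and lists were chosen with earlier results of these data known. Symbols were joined to GENCODE release 29. Alternatives were another pseudocount, filter, scaling, size rule, variance setting and design.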

Additional observations from a re-analysis of the deposited data

Results flagged for a closer look

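Of the members that reached 1 FPKM in both lines, HOXC6 and HOXC13 had changes with siHOXB9 of opposite sign in AGS and MKN1. HOXC6 changed by 0.31 in AGS and by -0.16 in MKN1, a difference of -0.47 (MKN1 minus AGS). HOXC13 changed by -0.25 in AGS and by 0.32 in MKN1, a difference of 0.57. With 1 library per line and siRNA these differences were not tested.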

How the results depend on the processing

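With a pseudocount of 0.1 FPKM, 1 of 5 member rows passed the 2-fold rule in AGS (HOXC5, -1.40) and 1 of 12 in MKN1 (HOXA6, -1.24). With a 1.5-fold rule 1 of 5 passed in AGS (HOXC5) and 1 of 12 in MKN1 (HOXA10). The main count was 0 in both lines. The share of all rows that passed under these alternatives is not given here. In the main setting 18.8% of all rows in AGS and 17.9% in MKN1 reached a size of at least 0.5. The counts are thus not read as a result about the members. The 0 members called for siHOXB9 over both lines stayed at 0 in every alternative run. Between the lines 11 member rows were called; a filter of 5 FPKM left 5 rows to test and called 5, as fewer rows were tested, and the other fits called 8 to 12. By size alone, with no test, 13 member rows differed in the siScramble libraries and 12 in the siHOXB9 libraries. The share of all rows that differed by size alone is not given here. Most of these members reached 1 FPKM in 1 line only, so the counts are no support for a difference. The siRNA comparison is paired by line, and the fit without the line as a block also called 0 members for siHOXB9. A pairing by replicate number could not be fitted, since the labels give none. Leaving out a library of the fit leaves no residual degree of freedom, and the values of each line alone stand in its place. Values of a few fragments, such as those of HOXC8, have a large counting error.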

Other observations

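PHF19, an accessory subunit of the Polycomb complex that methylates histone H3, was at 0.736 and 0.724 FPKM in AGS and at 140 and 123 FPKM in MKN1, a limma difference of 6.26 (SE 0.195). It passed the filter only through MKN1, so it had to differ, and it was picked out of the Polycomb list after its values were seen. HOXB7 was the only HOXB gene called higher in MKN1, with 0.141 and 0.0734 FPKM in AGS and 5.53 and 5.15 FPKM in MKN1, and it passed the filter only through MKN1.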
